A study of Rattus norvegicus with 192 samples.

Results

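The genes of glycolysis and of the response to low oxygen were followed in tissues of rats that had breathed phosphine. The list names 37 genes, and a gene was measured where a probe set of the array is annotated to it and to no other gene. That rule left 35 of the 37, read by 49 probe sets, out of 13438 genes with such a probe set and 31042 probe sets tested. Where a gene had several, the brightest by its mean over all arrays of a tissue stood for it, and 1 set was kept for all tissues where tissues are compared. Bnip3, a mitophagy receptor, and Eno1, the widespread enolase, are read only by probe sets that also name a pseudogene, and they have no value here. The single-gene probe set of Pgk1, which makes ATP in glycolysis, was dim in every tissue (Air means of 2.66 to 3.39), so it says little about that gene.

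Male Sprague-Dawley rats of 300 to 400 g breathed phosphine (PH3), a fumigant gas, in a whole-body chamber at 660 ppm for 25 min, an exposure of 16500 ppm × min or 0.71 of the median lethal product of concentration and time. Control rats (Air) were sampled at the same times and carry the same labels for strain and sex. Lung, heart, kidney, blood and, from the brain, the olfactory bulb and the brain stem were taken 1, 3, 6 and 24 h later, on 192 Affymetrix arrays from 59 rats. There were 48 groups, a tissue at a time under PH3 or Air. All had 4 rats apart from the Air groups of blood at 24 h, with 3, and of the olfactory bulb at 1 h, with 5. Ketamine and xylazine were given before death to all animals, so the Air groups share them.

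Glycolysis splits glucose into pyruvate and yields ATP without oxygen. Glucose enters through transporters, hexokinases trap it, and phosphofructokinase commits it to the pathway. The PFKFB enzymes set the level of fructose-2,6-bisphosphate, the strongest activator of phosphofructokinase, and lactate dehydrogenase regenerates the NAD that the pathway needs. When oxygen is low, prolyl hydroxylases (EGLN) stop marking the HIF alpha subunits for destruction, and HIF then switches on many glycolytic genes together with genes for new vessels, collagen and mitochondrial turnover. Phosphine is known to inhibit cytochrome c oxidase, the enzyme that uses oxygen in the respiratory chain.

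HIF binds a short core, ACGTG or GCGTG, and the bases just upstream of 5 genes are printed because the results below turn on these genes. Pfkfb3, P4ha1 and Hk2 changed in the lung, while Ldha and Ankrd37, textbook HIF targets, passed the test in no tissue. Each sequence holds the 150 bases before the transcription start, 5′ to 3′ on the gene's strand, from the RefSeq annotation of GRCr8, and capitals mark either core on either strand (CACGT and CACGC on the other strand).
Pfkfb3 (chr17:71944783-71944932, plus strand): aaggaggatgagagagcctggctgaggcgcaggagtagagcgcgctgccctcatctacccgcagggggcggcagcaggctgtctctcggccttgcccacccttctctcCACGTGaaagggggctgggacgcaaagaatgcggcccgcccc
P4ha1 (chr20:27844896-27845045, plus strand): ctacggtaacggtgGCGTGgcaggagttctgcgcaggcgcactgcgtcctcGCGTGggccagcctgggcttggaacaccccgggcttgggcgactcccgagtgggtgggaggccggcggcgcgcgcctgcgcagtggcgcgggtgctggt
Hk2 (chr4:116841276-116841425, minus strand): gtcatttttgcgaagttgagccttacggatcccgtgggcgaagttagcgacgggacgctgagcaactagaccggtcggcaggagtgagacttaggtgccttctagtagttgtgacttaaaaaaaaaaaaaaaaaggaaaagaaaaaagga
Ldha (chr1:106507942-106508091, plus strand): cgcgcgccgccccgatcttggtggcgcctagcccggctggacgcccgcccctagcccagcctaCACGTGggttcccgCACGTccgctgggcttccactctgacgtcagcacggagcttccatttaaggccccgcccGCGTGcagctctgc
Ankrd37 (chr16:53001357-53001506, plus strand): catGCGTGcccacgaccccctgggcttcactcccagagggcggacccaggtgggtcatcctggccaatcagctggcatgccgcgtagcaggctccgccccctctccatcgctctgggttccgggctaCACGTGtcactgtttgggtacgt

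A run of CACGTG holds ACGTG on both strands and was counted on each. By that count Pfkfb3 held 2 ACGTG and 0 GCGTG cores, Ldha 3 and 1, Ankrd37 2 and 1, P4ha1 0 and 2, and Hk2 held 0 of either. Of the 32 measured genes with a promoter in the table, 14 held either core in this window, which is 37.8% of their 37 start sites. Over all 33469 start sites of the annotation, 10.8% held ACGTG, 18.8% held GCGTG and 26.8% held either. The windows of Adm and Hif1a, which changed in the kidney, also held 0. Promoters with and without the core are thus found among the genes that changed and among those that did not.

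Values below are log2 RMA values, and an effect is PH3 minus Air of the same time, given as ± SE from the limma fit. A gene was called at a Benjamini-Hochberg adjusted p under 0.05 over all 31042 probe sets of a contrast. The share of all probe sets called is given beside each count of the main tests, since a share of the 35 genes near it is no result about these genes. As a check of depth, 25 of the 35 genes in blood had Air means below a nonspecific control probe set of high GC content, against 2 in lung, 4 in brain stem, 5 in olfactory bulb, 6 in kidney and 7 in heart. That control stood at 7.65 in blood and between 3.91 (olfactory bulb) and 5.22 (heart) in the other tissues. For those 25 genes the place of blood in an order of tissues can thus reflect background signal. Values are of whole tissue, so fewer cells of a type and less RNA per cell cannot be told apart. Marker lists were highest where the labels place them, and 29 arrays correlated less well with their tissue than the rest.

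In Air rats the tissues differed far more in these genes than PH3 and Air did. The level differed between the 6 tissues for 35 of 35 genes (limma F test with the rat as a random block), against 99.7% of all probe sets. Many of the widest gaps between tissues were those of isoforms that textbooks assign to nerve, muscle or other tissue. A level is compared below only with the same probe set in other tissues, as the mean ± SD over 15 rats in blood, 17 in olfactory bulb and 16 elsewhere.

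Aldoc, the aldolase of astrocytes, stood at 12.64 ± 0.06 in brain stem and 12.00 ± 0.10 in olfactory bulb. It was at 5.84 ± 0.31 in lung, 5.61 ± 0.69 in blood, 5.43 ± 0.29 in heart and 4.52 ± 0.22 in kidney. Aldoa, the aldolase of muscle and most other cells, ran from 12.69 ± 0.04 in heart through 12.55 ± 0.06 in olfactory bulb, 12.39 ± 0.06 in brain stem, 12.16 ± 0.06 in kidney and 11.65 ± 0.17 in lung to 11.26 ± 0.26 in blood. Every neighbouring pair in that Aldoa order differed, while for Aldoc lung and blood (adjusted p = 0.071) and blood and heart (0.14) did not pass.

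Eno2, the neuronal enolase, was at 11.32 ± 0.11 in olfactory bulb and 11.13 ± 0.07 in brain stem. That pair did not pass with the spread shared by all tissues (adjusted p = 0.076), to which the wider heart and blood contribute. Eno2 was at 5.01 ± 0.43 in heart, 4.53 ± 0.23 in lung, 4.19 ± 0.27 in kidney and 4.14 ± 0.40 in blood. Eno3, the muscle enolase, was at 11.08 ± 0.21 in heart, then 7.23 ± 0.47 in blood, below the nonspecific control there, and 6.92 ± 1.12 in lung. It was lowest in kidney (4.79 ± 0.14), olfactory bulb (4.56 ± 0.30) and brain stem (4.49 ± 0.21), which did not differ as neighbours. The muscle mutase Pgam2 followed the same outline, at 12.21 ± 0.10 in heart, 6.91 ± 1.12 in lung, 6.63 ± 0.50 in kidney, 6.29 ± 0.47 in blood and 3.55 in both olfactory bulb (SD 0.39) and brain stem (SD 0.17). Lung, kidney and blood did not differ as neighbours. Its widespread relative Pgam1 ran from 12.09 ± 0.06 in brain stem and 11.94 ± 0.05 in olfactory bulb through 11.57 ± 0.07 in kidney, 11.18 ± 0.12 in heart and 10.68 ± 0.11 in lung to 9.58 ± 0.42 in blood.

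Among the phosphofructokinases, Pfkm, the muscle form, was at 11.37 ± 0.11 in heart, 10.82 ± 0.09 in brain stem, 10.44 ± 0.08 in olfactory bulb, 8.68 ± 0.07 in kidney, 7.46 ± 0.43 in lung and 6.10 ± 0.46 in blood. Pfkp, the platelet form, led in brain stem (11.30 ± 0.04) and olfactory bulb (11.06 ± 0.08), ahead of kidney (9.07 ± 0.20), lung (8.86 ± 0.18), heart (8.60 ± 0.41) and blood (7.93 ± 0.29). All neighbours in these 2 orders differed. Pfkl, the liver form, was flatter, from 7.47 ± 0.81 in heart, 7.21 ± 0.16 in kidney, 7.13 ± 0.27 in lung and 6.95 ± 0.42 in brain stem, which did not differ as neighbours, to 6.41 ± 0.25 in olfactory bulb and 6.20 ± 0.58 in blood.

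Ldhb, the lactate dehydrogenase subunit of oxidative tissue, was at 12.77 ± 0.10 in heart, 12.37 ± 0.09 in olfactory bulb, 12.30 ± 0.07 in brain stem, 11.99 ± 0.12 in kidney, 9.55 ± 0.47 in lung and 8.48 ± 1.28 in blood. Ldha, the subunit of glycolytic muscle, was at 12.09 ± 0.14 in heart, 11.14 ± 0.12 in lung, 10.78 ± 0.09 in kidney, 10.73 ± 0.14 in olfactory bulb, 10.18 ± 0.33 in blood and 9.88 ± 0.15 in brain stem. Lung thus held the second place for Ldha and the fifth for Ldhb. For Ldhb, where the blood SD of 1.28 enters the shared spread, olfactory bulb, brain stem and kidney did not pass as neighbours. Kidney and olfactory bulb did not pass for Ldha. Gpi and Tpi1, 2 steps without tissue isoforms, ran from 11.13 ± 0.10 in brain stem to 9.94 ± 0.27 in blood and from 11.79 ± 0.19 in heart to 8.82 ± 0.30 in blood.

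Hk2, the insulin-responsive hexokinase, was at 6.87 ± 0.78 in heart and between 4.05 ± 0.14 (olfactory bulb) and 4.46 ± 0.47 (blood) in the other 5 tissues, with lung at 4.41 ± 0.22, kidney at 4.17 ± 0.13 and brain stem at 4.09 ± 0.20. None of the neighbouring pairs among those 5 differed. Hk1, the hexokinase of brain and red cells, ran only from 9.42 ± 0.14 in olfactory bulb, 9.35 ± 0.26 in brain stem and 9.20 ± 0.31 in heart to 8.59 ± 0.15 in kidney, 8.43 ± 0.35 in blood and 8.15 ± 0.25 in lung, and its top 3 did not differ as neighbours. The glucose transporter Slc2a1 of the blood-brain barrier was highest in brain stem (10.03 ± 0.19) and olfactory bulb (9.61 ± 0.19), then kidney (8.68 ± 0.21), heart (7.68 ± 0.22), lung (7.39 ± 0.26) and blood (6.87 ± 0.39). Slc2a3, the neuronal transporter, was dim throughout, from 5.0 (SD 0.40) in olfactory bulb, 4.79 ± 0.38 in blood and 4.58 ± 0.36 in brain stem to 3.62 ± 0.23 in heart, 3.29 ± 0.16 in lung and 3.16 ± 0.13 in kidney. It lay below the nonspecific control in heart, lung, kidney and blood.

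Of the PFKFB genes, Pfkfb3, the inducible form, was at 5.17 ± 0.59 in lung, 4.55 ± 0.50 in blood, 4.37 ± 0.57 in heart, 4.19 ± 0.20 in kidney, 3.96 ± 0.21 in brain stem and 3.65 ± 0.22 in olfactory bulb, and only lung differed from its neighbour. This order holds for 1 of its 2 probe sets, since the other was at 6.11 in blood, 4.27 in heart and 3.49 in lung. Pfkfb1, the liver and muscle form, was highest in lung (6.03 ± 0.40), then blood (4.89 ± 0.65), heart (4.29 ± 1.06), kidney (3.77 ± 0.24), olfactory bulb (3.70 ± 0.16) and brain stem (3.57 ± 0.15), the last 3 without a difference between neighbours. Pfkfb2, the heart form, was at 6.67 ± 0.17 in olfactory bulb, 6.60 ± 0.44 in heart and 6.56 ± 0.12 in brain stem, a top 3 that did not differ as neighbours, and at 6.26 ± 0.19 in lung, 5.53 ± 0.15 in kidney and 5.22 ± 0.55 in blood. Pfkfb4 was at 5.40 ± 0.55 in blood, 5.17 ± 0.33 in kidney, 4.61 ± 0.37 in lung, 4.03 ± 0.23 in brain stem, 3.87 ± 0.16 in olfactory bulb and 3.61 ± 0.31 in heart. For Pfkfb4 blood and kidney (adjusted p = 0.052) and the brain regions (0.31) did not differ. All PFKFB genes lay below the nonspecific control in blood (7.65), so the place of blood in these orders is uncertain.

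The oxygen sensors differed by tissue as well. Epas1, the HIF-2 alpha subunit known from endothelium, was at 9.13 ± 0.29 in lung, 6.86 ± 0.53 in heart, 5.67 ± 0.15 in kidney, 5.24 ± 0.26 in brain stem, 4.93 ± 0.47 in blood and 4.82 ± 0.16 in olfactory bulb. Hif1a, the HIF-1 alpha subunit, was level in 4 tissues, at 9.95 ± 0.10 in olfactory bulb, 9.88 ± 0.09 in brain stem, 9.78 ± 0.15 in lung and 9.67 ± 0.10 in kidney, with heart at 9.02 ± 0.11 and blood at 6.90 ± 1.04. Egln3, a hydroxylase that is itself a HIF target, was at 10.77 ± 0.26 in heart, 8.07 ± 0.14 in brain stem, 7.16 ± 0.50 in kidney, 7.10 ± 0.15 in olfactory bulb, 5.60 ± 0.64 in blood and 5.45 ± 0.39 in lung. Kidney and olfactory bulb, and blood and lung, did not differ for Egln3. Egln1, the main sensor, ran from 9.96 ± 0.17 in heart through 8.45 ± 0.09 in kidney, 8.34 ± 0.07 in lung, 8.31 ± 0.14 in brain stem and 7.81 ± 0.11 in olfactory bulb to 7.31 ± 0.33 in blood, with kidney, lung and brain stem not differing as neighbours.

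The HIF targets had no common order. Vegfa, the vessel growth factor, was highest in lung (10.69) and lowest in blood (3.90), and Ndrg1, a stress-responsive cytosolic protein, was highest in kidney (12.02) and lowest in heart (7.80). Ankrd37 peaked in kidney (7.32), Adm, a vasodilator peptide, in heart (6.88), Mxi1, a Myc antagonist, in blood (11.05) and Higd1a, a mitochondrial protein, in heart (11.15). Kdm3a, a histone demethylase, led in lung (7.87) and was lowest in blood (5.86). The collagen prolyl hydroxylases P4ha1 and P4ha2 had their highest means in lung, P4ha1 at 8.94 ± 0.21 and P4ha2 at 8.18 ± 0.16, though P4ha2 did not differ there from heart (adjusted p = 0.087). P4ha1 then ran through kidney (8.43 ± 0.18), heart (8.38 ± 0.24), brain stem (8.06 ± 0.32) and olfactory bulb (7.81 ± 0.22) to blood (mean 5.0, SD 0.51), and P4ha2 through heart (7.99 ± 0.27), olfactory bulb (7.74 ± 0.18), kidney (7.36 ± 0.29) and brain stem (6.40 ± 0.15) to blood (5.46 ± 0.54). Blood and solid tissues came through different RNA kits, and which arrays were normalized together is not given in the sources used here, so a tissue gap can hold a part that is technical. That part cannot be told apart.

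**Figure D1:**
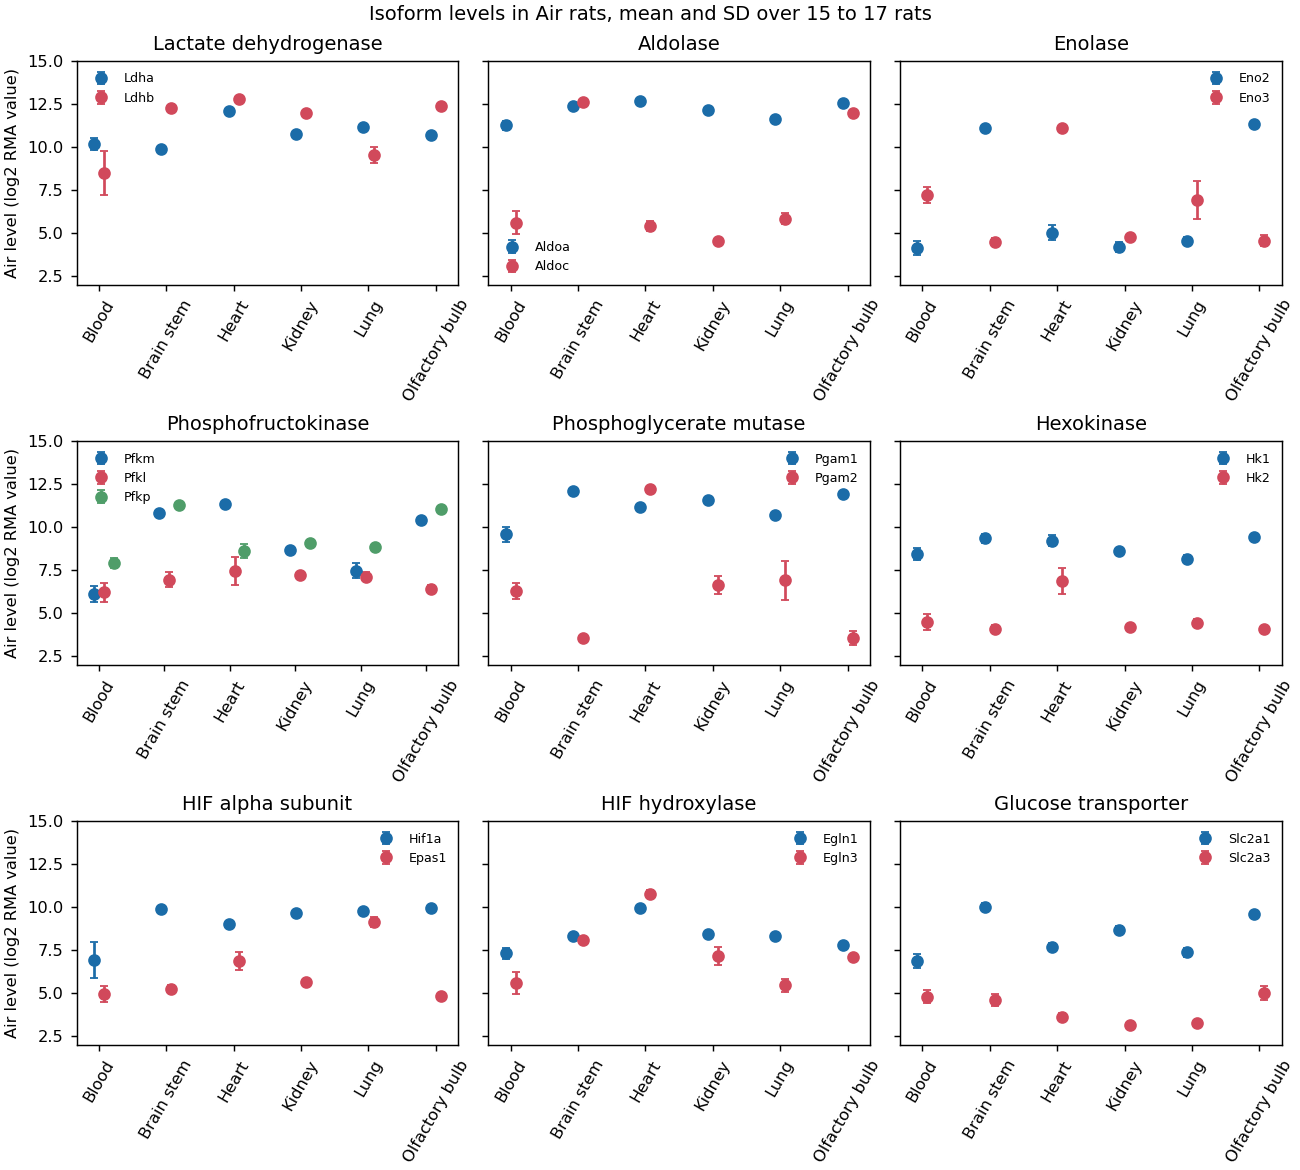
Level in Air rats (log2 RMA value, y axis) of the isoforms of 9 families of enzymes, transporters and HIF subunits in the 6 tissues (x axis), as mean and SD over 15 to 17 rats; heights of different genes come from different probe sets and are not comparable. Aldoc and Eno2 stand above 11 only in brain stem and olfactory bulb, Pgam2 and Eno3 only in heart, and Epas1 is highest in lung.

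After PH3, 9 of 840 combinations of gene, tissue and time were called, and they fell on 6 genes in kidney and lung at 1 and 3 h. The other 29 genes were called in no contrast. With only the 2 groups of a time in the fit 7 of the 9 calls were lost, and with the rat as a block over all tissues 8 were. The block fit also gives every tissue 1 shared spread, and its correlation between tissues of a rat was 0.0168. Which of these lost the calls was not tested. Leaving out the arrays that stand apart lost 5, those of Pfkfb3 and Hif1a in kidney at 1 h, Hk2 in lung at 1 h and P4ha1 in lung at both times. Outside blood, 1 effect exceeded 1 log2 unit in size, that of Pfkfb3 in the lung at 1 h.

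**Figure D2:**
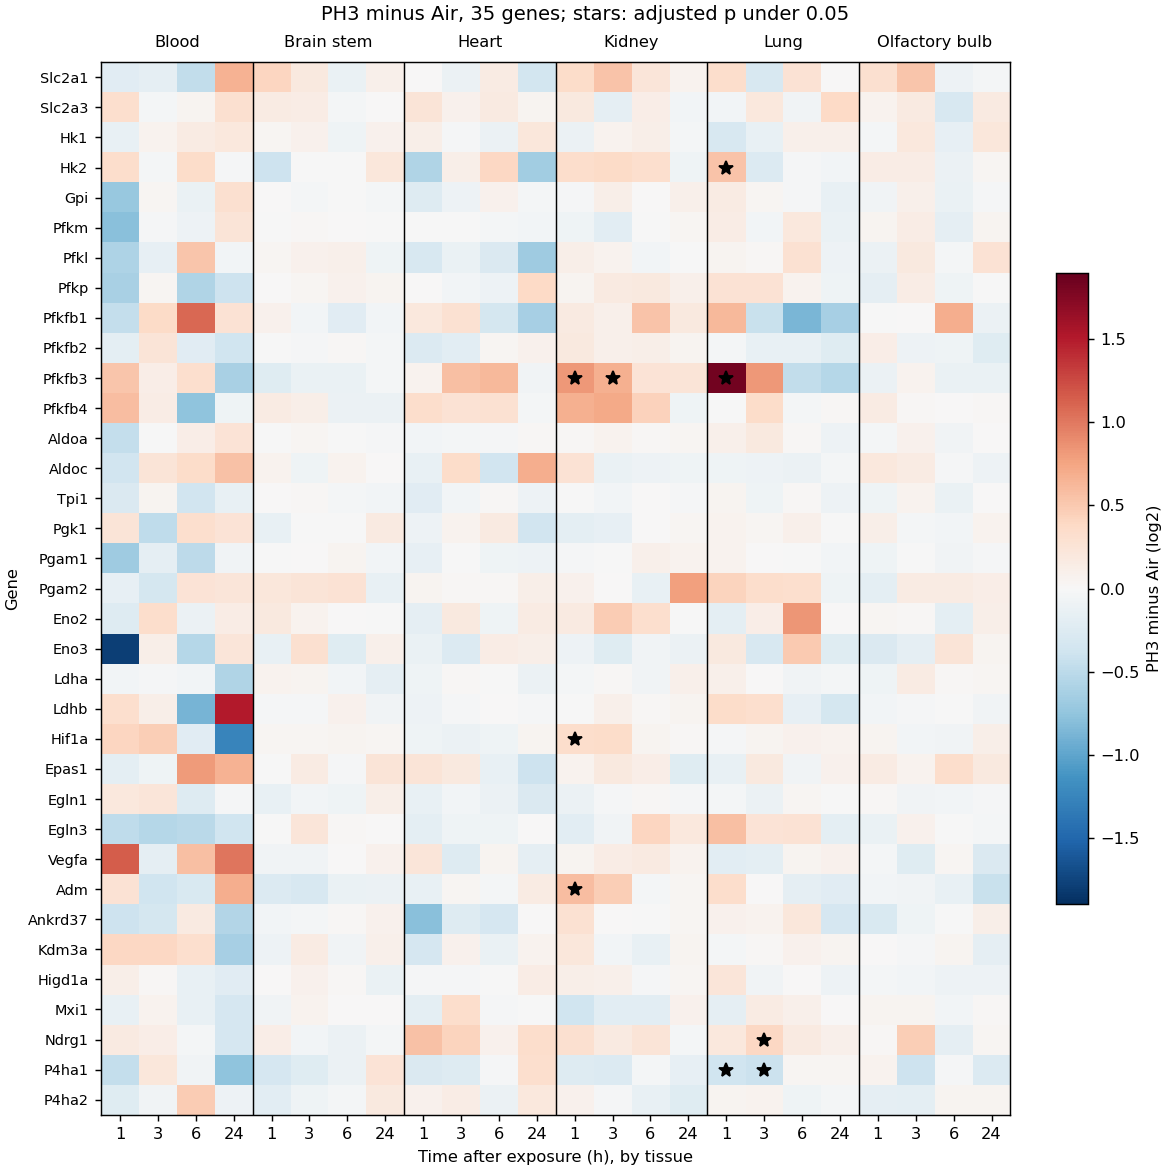
PH3 minus Air (log2, colour) for the 35 genes (y axis) at 4 times in 6 tissues (x axis), with a star where the adjusted p is under 0.05. The 9 stars lie in kidney and lung at 1 and 3 h, and blood shows the widest colours with no star.

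In the lung at 1 h, 3 of 35 genes were called (8.57%), against 4.24% of all probe sets. Pfkfb3 and Hk2 rose and P4ha1 fell. Among the marker lists, 1 of 7 endothelial markers rose there (Cldn5, by 0.63) and 1 fell (Kdr, at -0.49). The platelet marker Ppbp rose by 0.50, with 5 of 5 platelet markers positive (list means of 5.50 to 6.18 in Air and 5.64 to 6.54 in PH3), and 6 of 6 red cell markers were positive with 0 called (5.20 to 5.96 and 5.75 to 6.16). The cardiac muscle markers had 0 of 6 called, with list means of 7.76 to 9.32 in Air and 7.23 to 11.08 in PH3. The part of the endothelial, platelet and red cell markers in the 3 results was not tested.

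Pfkfb3 in the lung at 1 h was at 5.34, 4.41, 4.43 and 4.95 in the 4 Air rats and at 7.62, 6.22, 6.08 and 6.56 in the 4 PH3 rats. Every PH3 rat lay above every Air rat, and the PH3 rat at 7.62 was the highest lung of the series for this gene. The effect was 1.84 ± 0.31, a 3.58-fold rise (95% interval 2.32 to 5.53, adjusted p = 0.000341). It passed in every alternative run, also without any 1 rat (1.5 to 2.03) and with the rat as a block over all tissues. The second Pfkfb3 probe set, dimmer at 3.49 in Air, gave 0.31 ± 0.12 and did not pass (adjusted p = 0.20).

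At 3 h Pfkfb3 in the lung ran from 4.16 to 5.16 in Air and from 5.35 to 5.90 in PH3. The groups did not overlap, but the effect of 0.83 ± 0.31 missed the threshold (adjusted p = 0.083). At 6 h the Air rats spanned 5.57 to 5.99 and the PH3 rats 5.04 to 5.61 (effect -0.47 ± 0.31), and at 24 h they spanned 4.59 to 5.99 and 4.03 to 5.20 (effect -0.54 ± 0.31); neither passed. The effect thus ran from positive at 1 h to negative at 6 and 24 h, and it differed between times (limma F test, adjusted p = 0.00234). The Air means themselves were 4.78, 4.78, 5.78 and 5.34 at 1, 3, 6 and 24 h (adjusted p = 0.054 for a difference between Air times).

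**Figure D3:**
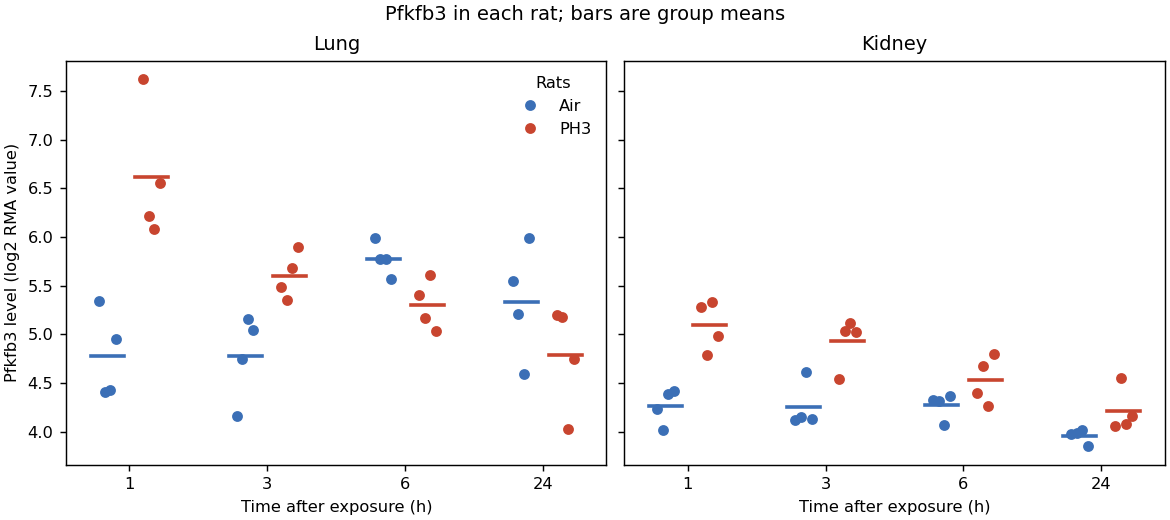
Pfkfb3 level (log2 RMA value, y axis) in each rat by time after exposure (x axis) in lung and kidney, blue for Air and red for PH3, with group means as bars. In the lung at 1 h the PH3 rats sit between 6.08 and 7.62 above Air rats between 4.41 and 5.34. In the kidney the effect is 0.83 at 1 h and 0.25 at 24 h. It did not differ between times there (limma F test, adjusted p = 0.39).

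Hk2 in the lung at 1 h was at 4.32, 4.32, 4.87 and 4.22 in Air and at 5.02, 4.86, 4.90 and 5.14 in PH3. The Air rat at 4.87 stood away from the other Air rats and just above the lowest PH3 rat, so the groups overlapped. The effect was 0.55 ± 0.15 (adjusted p = 0.0287), a 1.46-fold rise. The call was lost without any 1 of Air Rat345, Rat352 and Rat354 or PH3 Rat343 and Rat357 (effects of 0.48 to 0.53, adjusted p of 0.0855 to 0.106). With the rat as a block it was also lost (adjusted p = 0.95).

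P4ha1 in the lung at 1 h was at 9.06, 9.18, 8.97 and 9.12 in Air and at 8.54, 8.83, 8.51 and 8.93 in PH3. All PH3 rats lay below all Air rats. The effect was -0.38 ± 0.11, to 0.767 of the Air level (adjusted p = 0.0345). Leaving out Air Rat345, Rat352 or Rat354 or PH3 Rat343 or Rat351 lost the call (adjusted p of 0.0632 to 0.150), as did array medians subtracted (0.0594) and the rat block (adjusted p = 0.76).

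In the lung at 3 h, 2 of 35 genes were called (5.71%), fewer than the 9.89% of all probe sets. Ndrg1 was at 8.46, 8.72, 8.58 and 8.67 in Air and at 8.91, 9.06, 9.01 and 9.01 in PH3. The PH3 rats lay close together and above every Air rat. The effect was 0.39 ± 0.08 (adjusted p = 0.00294), a 1.31-fold rise, and the second Ndrg1 probe set rose by 0.65 ± 0.10 (adjusted p = 0.000586).

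P4ha1 at 3 h was at 9.28, 8.95, 9.12 and 9.27 in Air and at 8.91, 8.72, 8.52 and 8.83 in PH3. Again every PH3 rat lay below every Air rat. The effect was -0.41 ± 0.11 (adjusted p = 0.0154), and it was lost without Air Rat355 (adjusted p = 0.0580) or PH3 Rat368 (0.0806). The Air mean of P4ha1 itself differed between times, from 9.08 at 1 h and 9.15 at 3 h to 8.76 at 6 h and 8.74 at 24 h (adjusted p = 0.0119). Set against Air rats of all 4 times, the effect was -0.23 at 1 h and -0.19 at 3 h and passed at neither (adjusted p = 0.0783 and 0.315).

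At 3 h the lung groups also differed in an index of RNA quality, the 3′ minus 5′ signal of the Gapdh and beta-actin controls, at 0.343 to 0.521 in Air and 0.0952 to 0.247 in PH3. With that index as a covariate 0 genes were called, Ndrg1 at 0.44 (adjusted p = 0.195) and P4ha1 at -0.28 (0.542), and with the rat block neither passed (0.552 and 0.379). Of 6 neutrophil markers 3 rose there, S100a8, S100a9 and Mmp8, with list means of 4.80 to 6.05 in Air and 5.86 to 6.91 in PH3. The T cell marker Cd3e also rose (0.57), while the endothelial marker Vwf (-0.55), the red cell marker Slc25a37 (-0.35) and the kidney tubule marker Lrp2 (-0.74) fell. The part of these markers in the Ndrg1 and P4ha1 results was not tested.

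At 6 and 24 h the lung had 0 genes called, as did all probe sets (0% at both times). The gene nearest to a call was Eno2 at 6 h, at 4.09 to 4.55 in Air and 5.02 to 5.30 in PH3. No rats overlapped, and the effect of 0.84 (95% interval 0.55 to 1.14) had an adjusted p of 0.072. The Eno2 effect differed between times (adjusted p = 0.00991), since it was -0.19 at 1 h, 0.12 at 3 h and 0.01 at 24 h. Pfkfb1 also differed between times (adjusted p = 0.0483), from 0.62 at 1 h to -0.87 at 6 h, where Air rats spanned 6.10 to 6.40 and PH3 rats 5.03 to 5.71. These were 3 of 35 genes with Pfkfb3 (8.57%), against 4.82% of all probe sets. In the other tissues 0 genes differed in effect between times, against 0% of probe sets in blood and olfactory bulb, 0.0709% in brain stem, 0.116% in heart and 0.49% in kidney.

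In the kidney at 1 h, 3 of 35 genes rose (8.57%), against 2.35% of all probe sets, and 0 fell. Pfkfb3 was at 4.23, 4.02, 4.39 and 4.42 in Air and at 5.28, 4.79, 5.33 and 4.98 in PH3. All PH3 rats lay above all Air rats, though the Air mean of 4.27 lay under the nonspecific control at 4.36. The effect was 0.83 ± 0.15 on the log2 scale (adjusted p = 0.00118), with no fold given since Air was not above the control. Its dimmer second probe set gave -0.08 ± 0.15, and the mean of the 2 sets did not pass (0.38, adjusted p = 0.0581). The call was also lost without the arrays that stand apart (0.61, adjusted p = 0.0961) and with the rat block (adjusted p = 0.34).

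Adm in the kidney at 1 h was at 6.12, 6.61, 6.67 and 6.73 in Air and at 6.85, 6.98, 7.14 and 7.50 in PH3. The groups did not overlap, and the Air rat at 6.12 was the lowest of the 8. The effect was 0.58 ± 0.14 (adjusted p = 0.0155), a 1.5-fold rise. It was lost without Air Rat345 (0.45, adjusted p = 0.0792) or PH3 Rat357 (0.46, 0.0973) and with the rat block (0.59).

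Hif1a in the kidney at 1 h was at 9.61, 9.85, 9.68 and 9.67 in Air and at 10.06, 10.19, 9.96 and 9.97 in PH3. Each PH3 rat lay above each Air rat. The effect was 0.34 ± 0.08 (adjusted p = 0.0204), a 1.27-fold rise. It was lost without Air Rat345, Rat353 or Rat354 or PH3 Rat343 or Rat350 (adjusted p of 0.0575 to 0.0951), without the arrays that stand apart (0.125), with the mean of its probe sets (0.30, adjusted p = 0.106) and with the rat block (1). Its second probe set, dim at 4.42 in Air, gave 0.26 ± 0.17 (adjusted p = 0.59).

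At 3 h in the kidney 1 of 35 genes was called (2.86%), against 0.303% of all probe sets. Pfkfb3 was at 4.12, 4.15, 4.61 and 4.13 in Air and at 4.54, 5.04, 5.12 and 5.02 in PH3. The Air rat at 4.61 lay above the lowest PH3 rat. The effect was 0.68 ± 0.15 (adjusted p = 0.0327), and it was lost without any 1 of Air Rat355, Rat365 and Rat490 or PH3 Rat361, Rat363 and Rat399 (0.61 to 0.65, adjusted p of 0.0754 to 0.165), with array medians subtracted (0.63, adjusted p = 0.0645), with the mean of its probe sets (0.32, 0.273) and with the rat block (1). The muscle marker Acta1 rose there by 0.97, and its part was not tested. Hif1a at 3 h had an effect of 0.35 that missed the threshold (adjusted p = 0.053), and Adm one of 0.46. By 6 and 24 h, 0 genes were called (0.0161% and 0% of probe sets), and Pfkfb3 stood at 0.26 and 0.25.

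In the kidney at 1 h, 2 of 6 red cell markers rose, Alas2 by 1.38 and Ahsp by 0.82, with list means of 4.91 to 5.30 in Air and 5.43 to 5.74 in PH3. Of 5 skeletal muscle markers, all dim there, Acta1 rose by 0.67. Their part in the 3 rises was not tested.

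**Figure D4:**
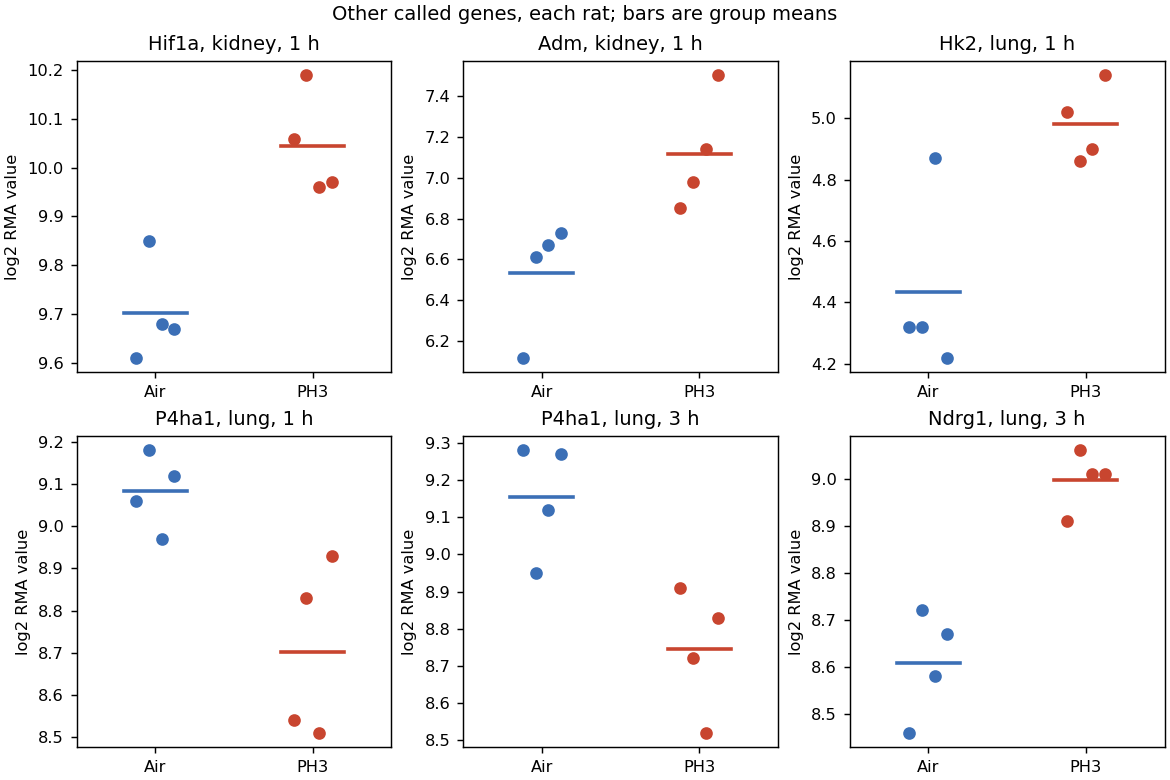
Level (log2 RMA value, y axis) in each Air (blue) and PH3 (red) rat for the 6 other called contrasts, with group means as bars and a separate y range in each panel. Hif1a, Adm and Ndrg1 lie higher and P4ha1 lies lower in all PH3 rats, while for Hk2 an Air rat at 4.87 lies above a PH3 rat at 4.86.

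The other tissues had 0 genes called at any time. In brain stem the background was 0.306% of probe sets at 1 h, 0.0161% at 3 h, 0% at 6 h and 0.00322% at 24 h. The nearest gene was Slc2a1 at 1 h, at 10.07 to 10.33 in Air and 10.42 to 10.69 in PH3, an effect of 0.40 (95% interval 0.19 to 0.61, adjusted p = 0.11) with no overlap between groups. In olfactory bulb (0.00322% at 1 h and 0% later) the nearest was Slc2a1 again, at 3 h, at 9.36 to 9.63 in Air and 9.86 to 10.19 in PH3, with an effect of 0.52 (0.24 to 0.81, adjusted p = 0.45). Neither reached the threshold for this transporter of the blood-brain barrier.

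In heart 0.915% of probe sets were called at 1 h, 0.00644% at 3 h, 0% at 6 h and 0.00644% at 24 h. Ankrd37 at 1 h was at 5.12 to 5.36 in Air and 3.87 to 5.17 in PH3, with an effect of -0.80 (95% interval -1.23 to -0.36, adjusted p = 0.065). This HIF target lay near the nonspecific control in heart (5.22), and its groups overlapped. Pfkfb3 in heart had effects of 0.58 at 3 h and 0.62 at 6 h that did not pass (adjusted p = 0.96 and 1). Its other probe set gave -0.36 and -0.48, and both sets lay below the control.

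In blood 0% of probe sets were called at every time, and at an unadjusted p under 0.05 the 35 genes gave 6, 0, 2 and 1 at 1, 3, 6 and 24 h, against 8.34%, 2.93%, 4.24% and 6.50% of all probe sets. The enolase Eno3 at 1 h was at 6.97 to 7.86 in Air and 5.01 to 6.26 in PH3. Its Air mean of 7.45 at 1 h lay below the nonspecific control in blood (7.65). No rats overlapped, and the effect of -1.78 (95% interval -2.44 to -1.13) had an adjusted p of 0.058. The SE in blood was wide, with a median of 0.34 over the 35 genes at 1 h against 0.13 in lung and 0.10 in brain stem. In the fit of all tissues with the rat block, which gives every tissue 1 shared spread, blood had 7, 1, 4 and 9 genes called at the 4 times, against 19.4%, 6.4%, 10.7% and 18.3% of all probe sets.

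Most of the core enzymes can be bounded. Of the 16 measured enzymes from hexokinase to lactate dehydrogenase, 12 lay above the nonspecific control in all 5 solid tissues. Hk2, Eno2, Pgam2 and Pgk1 did not and were left out in every tissue. The bounds do not cover them. Hk2 was called in lung at 1 h and stood at -0.39 in brain stem at 1 h, and Eno2 came near a call in lung at 6 h. The effects of the 12 over the 4 times ran from -0.22 to 0.27 in kidney, -0.22 to 0.30 in brain stem and -0.27 to 0.27 in olfactory bulb, and none of the 12 was called. Their outermost 95% intervals were -0.55 to 0.56, -0.51 to 0.58 and -0.72 to 0.71, so changes of the 12 beyond these sizes were not seen there. Heart and lung were less precise, with outermost intervals of -1.32 to 1.24 and -1.93 to 2.11. For Ldha, the textbook HIF target of the pathway, the effect at 1 h was 0.10 in lung and -0.04 in kidney, and for Vegfa it was -0.19 and 0.05.

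The remaining regulators and targets were called in no solid tissue. Of the oxygen sensors, Egln1 ranged from -0.27 (heart, 24 h) to 0.11 (brain stem, 24 h), and Egln3 from -0.21 (kidney, 1 h) to 0.57 (lung, 1 h). Epas1 ranged from -0.40 (heart, 24 h) to 0.34 (olfactory bulb, 6 h). Of the targets, Higd1a kept between -0.13 and 0.23, P4ha2 between -0.23 and 0.19, and Kdm3a between -0.32 and 0.21. Mxi1 came close in kidney at 1 h, at -0.38 (adjusted p = 0.058), while its dimmer second probe set rose in lung at 3 h by 0.37 (0.0155). Pfkfb4, a relative of Pfkfb3, stood at 0.67 and 0.72 in kidney at 1 and 3 h and did not pass (adjusted p = 0.171 at 3 h), and Pfkfb2 kept between -0.27 and 0.19. The transporter Slc2a1 was highest in kidney at 3 h, at 0.54 (adjusted p = 0.156), and Slc2a3 kept between -0.30 and 0.37.

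Over all 35 genes the median effect at 1 h was 0.07 in lung and 0.08 in kidney, with 22 of 35 positive (62.9%) in each. Over all probe sets the medians were -0.01 and 0.00, with 47.5% and 49.3% positive. In brain stem, heart, olfactory bulb and blood 16, 12, 16 and 13 of the 35 were positive at 1 h.

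Whether the 1 h effect differed between tissues was tested with the same probe set in all 6 (Welch test on the limma effects, adjusted over all probe sets). It differed for 4 of 35 genes (11.4%), against 3.09% of probe sets. Pfkfb3 had effects of 1.84 in lung, 0.83 in kidney, 0.68 in heart, 0.03 in blood, -0.11 in olfactory bulb and -0.24 in brain stem (adjusted p = 8.85e-06). This probe set lay above the nonspecific control in Air only in lung, so the differences rest on a dim probe in the other 5 tissues. In heart and blood another probe set stood for the gene, with effects of 0.07 and 0.52 at 1 h that did not pass. Hk2 had 0.55 in lung, 0.34 in kidney and blood, 0.13 in olfactory bulb, -0.39 in brain stem and -0.57 in heart (adjusted p = 0.00387). Lung and heart thus lay at the ends for this hexokinase. In Air, Hk2 lay below the nonspecific control in kidney and blood. It was little above it in brain stem (4.09 against 4.01), olfactory bulb (4.05 against 3.91) and lung (4.41 against 4.04). Eno3 differed through blood (-1.78, adjusted p = 0.0271), where it lay below the nonspecific control. Adm ran from 0.58 in kidney and 0.33 in lung to -0.26 in brain stem (adjusted p = 0.0332). With an F test in the fit with the rat block, 3 genes differed, Pfkfb3, Gpi and Pgam1, against 6.38% of probe sets, and Hk2 (adjusted p = 0.278), Eno3 (0.0871) and Adm (0.408) did not pass.

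The Air level differed between times for 4 genes in brain stem (Hk1, Pfkl, Epas1 and P4ha1; 11.4% against 7.8% of probe sets) and 4 in lung (Hk1, Vegfa, Adm and P4ha1; 12.2% of probe sets). In heart Hk1 and Pfkl differed (5.71% against 0.548%), while kidney, olfactory bulb and blood had 0 genes (0.00322%, 1.39% and 0% of probe sets). P4ha1 in brain stem, for example, had Air means of 8.39, 8.21, 7.97 and 7.67 at 1, 3, 6 and 24 h (adjusted p = 0.000224).

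The pathway's other genes, from lists that were chosen with results of these data known, were called in lung, brain stem, kidney and heart, and most calls of all probe sets also lay in the lung. Of 31 further glycolysis and glucose handling genes, 4 rose and 0 fell in the lung at 1 h, where 4.24% of all probe sets were called. Pdk4, a kinase that inhibits pyruvate dehydrogenase, rose by 1.86 ± 0.44 and Slc16a3, a lactate exporter, by 0.89 ± 0.14. Tigar, a fructose bisphosphatase, rose by 0.42 ± 0.11 and Pdha1, a subunit of pyruvate dehydrogenase, by 0.34 ± 0.07. At 3 h 2 rose there, Slc2a5, a fructose transporter, by 0.52 ± 0.17 and Pdha1 by 0.28 ± 0.07. Pdk4 also rose in brain stem (1.75 ± 0.28) and kidney (1.39 ± 0.23) at 1 h. Of 36 further HIF pathway genes, 2 rose and 3 fell in the lung at 1 h, with Tfrc, the transferrin receptor, up by 0.57 ± 0.13 and Cxcr4, a chemokine receptor, at -0.68 ± 0.12. At 3 h in the lung, where 9.89% of all probe sets were called and the groups differed in the RNA index, 6 rose and 2 fell. Lox (0.91 ± 0.20), a collagen cross-linker, and Arnt (0.55 ± 0.14), a partner of HIF alpha, were among those that rose. The 2 that fell were Bhlhe40 (-0.99 ± 0.30) and Arnt2 (-0.47 ± 0.14), a relative of Arnt. Cxcr4 was also lower at 1 h in heart (-1.48 ± 0.22) and brain stem (-1.28 ± 0.21). The median effect of these HIF genes in the lung was 0.02 at 1 h and 0.01 at 3 h, with 20 and 19 of the 36 positive.

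Lung arrays also varied in heart muscle transcripts, and several glycolytic genes varied with them. The mean of 6 cardiac muscle markers ran from 6.76 to 11.08 over the 32 lung arrays with a median of 8.24, against a mean of 12.58 in heart, and PH3 and Air overlapped at every time. Deviations from the group means were correlated with those of each gene over the 32 rats, with p from 100000 permutations of rats within groups, adjusted over the 35 genes. The relation was examined after the values were seen.

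For Ldhb r was 0.88 and Spearman's rho 0.86 (adjusted p = 0.000117 and 0.000175), and for the muscle mutase Pgam2 r was 0.88 and rho 0.88 (the same adjusted p). The raw p of 1e-05 is the smallest the permutations can give. Pgam1 (r 0.83, rho 0.81, adjusted p = 0.000117 and 0.000233) and Tpi1 (r 0.79, rho 0.76, adjusted p = 0.000408 and 0.000875) followed. Without the 2 arrays farthest from the median, r was 0.84 for Ldhb, 0.84 for Pgam2, 0.77 for Pgam1 and 0.73 for Tpi1. In all, 12 genes were related positively and 4 negatively by r, and 14 of the 16 also passed by rho. The relation was not examined over all probe sets, so these counts have no background share. They cannot be read as particular to these genes.

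Pgam2 in lung spanned 5.32 to 9.11, and Egln3 (r 0.76, rho 0.68, adjusted p = 0.000408 and 0.0035) spanned 4.84 to 6.86. The part of heart muscle in these spans was not tested. Pfkfb3 was among the 4 negative genes (r -0.56, rho -0.52, adjusted p = 0.0283 and 0.0391). With the marker mean as a covariate in the lung fit, Pfkfb3 at 1 h was 1.96 ± 0.26 (adjusted p = 2.4e-05), and Hk2 and P4ha1 also passed. That covariate was chosen after the values were seen, and the cause of the relation was not tested.

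**Figure D5:**
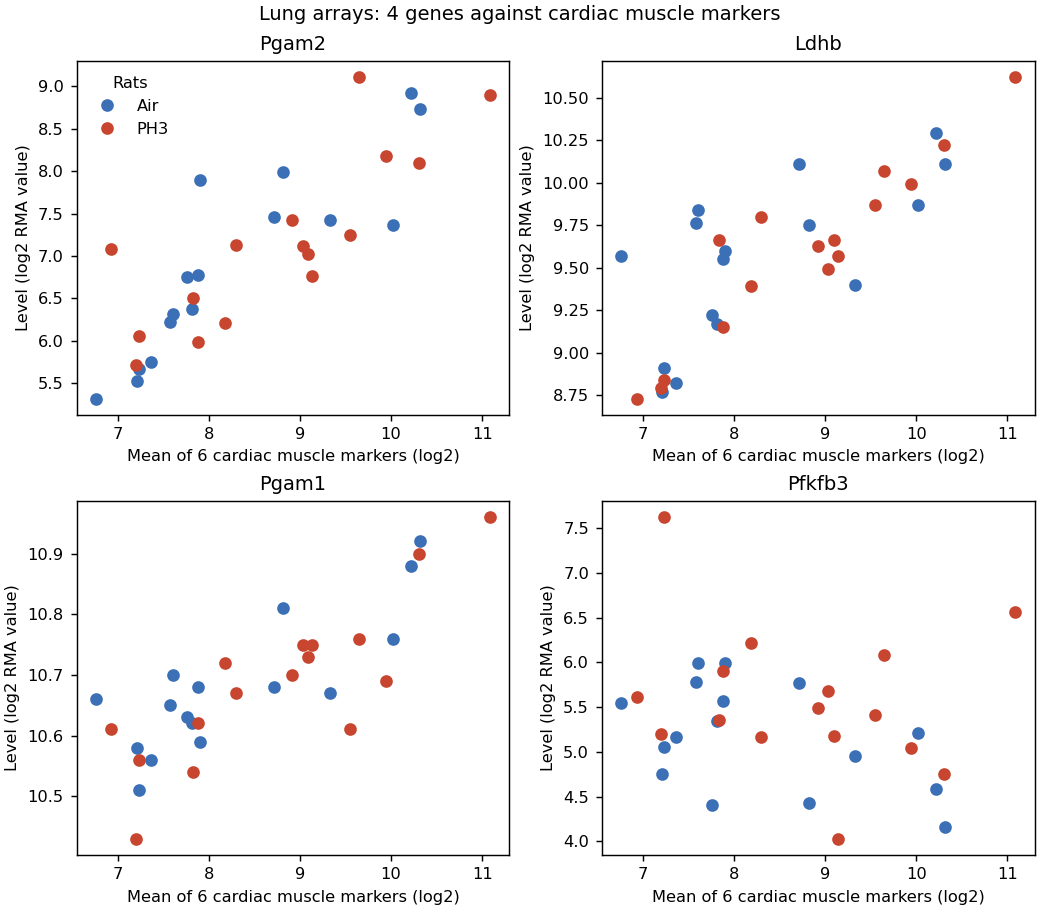
Level of Pgam2, Ldhb, Pgam1 and Pfkfb3 (log2 RMA value, y axes) against the mean of 6 cardiac muscle markers (log2, x axis) in the 32 lung arrays, blue for Air and red for PH3. Pgam2, Ldhb and Pgam1 climb with the markers in both groups, while Pfkfb3 does not climb.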

How the data were processed

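The deposited values are log2 expression values of probe sets. Per the submitters' processing notes they came from Partek and RMA, and no version was found in the labels. RMA removes background, forces arrays to a shared distribution and merges probes, which compresses low signals, so fold changes of dim genes are understated. Of the probe sets, 97 controls were left out. In R 4.3.3 with limma 3.58.1, 1 fit per tissue held its 8 groups, and each PH3 group was set against its time-matched Air group, two-sided, with Benjamini-Hochberg adjustment over all probe sets. Each array of a tissue came from another rat, so p-values measure the spread between rats; the number of arrays limits the precision. Same-numbered arrays are tissues of 1 rat, and the numbers do not pair PH3 with Air. A fit of all tissues with the rat as a replicate block (consensus correlation 0.0168) was an alternative.

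The genes and lists were chosen with earlier results of these data known. Genes called in a contrast are given in every rat, at most 2 others per contrast by value, and isoform families in every tissue. Alternatives were array medians subtracted, the brighter 50% of probe sets, the RNA index as a covariate, Air of all times, array weights, a trended robust variance, the mean probe set, the 2 groups alone, arrays that stand apart (over 3 scaled MAD below their tissue's median correlation) left out, and each rat left out. Promoters are RefSeq, GRCr8. The steps were tested on simulated data.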

Additional observations from a re-analysis of the deposited data

Results flagged for a closer look

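Of 18 groups of called genes, 2 held a rat set apart from its group by Dixon's criterion, which chance alone meets in about 1 group in 20: the Hk2 value of 4.87 in Air Rat353 in the lung at 1 h, and the Pfkfb3 value of 4.61 in Air Rat400 in the kidney at 3 h. Each was the highest of the 4 Air rats of that tissue and time.

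The effect at 1 h differed between tissues for Pfkfb3 (adjusted p = 8.85e-06), Hk2 (0.00387), Eno3 (0.0271) and Adm (0.0332). At 1 h the olfactory bulbs come from a separate set of rats, while the other tissues share their rats. With the rat as a block, in a fit that gives all tissues 1 spread, Pfkfb3 passed while Hk2 (0.278), Eno3 (0.0871) and Adm (0.408) did not. In the lung the effect differed between times for Pfkfb3 (0.00234), Eno2 (0.00991) and Pfkfb1 (0.0483).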

How the results depend on the processing

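No effect of a called gene reversed under any alternative, and Pfkfb3 in the lung at 1 h kept its call in all of them (1.07 to 2.14, adjusted p up to 0.035). Of the alternatives for called effects, 110 kept the call and 54 lost it; of those for counts of genes called, 389 stayed within 1.5 times and 51 did not. Counts below are of the 35 genes. The share of all probe sets called is given for the rat block only, so the other counts cannot be read as particular to these genes. With the rat as a replicate block in 1 fit of all tissues, blood had 7, 1, 4 and 9 at 1, 3, 6 and 24 h. The shares of all probe sets there were 19.4%, 6.4%, 10.7% and 18.3%. Heart had 1 at 1 h (2.36% of probe sets), and kidney had 0 at 1 h (0.689%) and 0 at 3 h (0.0999%). Lung had 1 at 1 h (1.24%) and 0 at 3 h (1.25%). That fit gives all tissues 1 spread. Against Air of all 4 times there were 1 in blood, 1 in brain stem, 3 in heart, 7 in kidney and 5 in lung at 1 h, 4 in kidney and 2 in olfactory bulb at 3 h, 1 in lung at 6 h and 1 in brain stem at 24 h. With the 2 groups of a time alone, kidney had 0 at 1 h and 0 at 3 h and lung 1 at each; fewer arrays then estimate the spread. With medians subtracted, blood had 1 at 1 h and kidney 0 at 3 h. With array weights there was 1 in brain stem and 1 in heart at 1 h and 2 in kidney at 3 h. The trended robust variance gave 1 in blood at 1 h and 2 in kidney at 3 h, and the brighter probe sets 1 in blood at 1 h. The mean probe set gave 1 in kidney at 1 h and 0 at 3 h. With the RNA index as a covariate lung had 0 at 3 h and 1 at 6 h. Without arrays that stand apart there was 1 in kidney at 1 h and 1 in lung at 3 h. Leaving out each rat gave 0 to 1 in blood and heart, 1 to 4 in kidney and 1 to 3 in lung at 1 h, and 0 to 2 in kidney and 1 to 3 in lung at 3 h. The cause of these changes was not tested. The cardiac muscle covariate was chosen after seeing the data and left 3 genes called in lung at both 1 and 3 h. The Air difference between tissues held for 35 genes with medians subtracted, without 24 h and with no replicate block. Weak signal limits Pgk1 in all tissues, 25 genes in blood, Pfkfb3 in all tissues but lung, and in some solid tissues Slc2a3, Pfkfb1, Pfkfb4, Hk2, Eno2, Pgam2 and Ankrd37.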
